A study of Mus musculus with 2 samples.

Results

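Connexins and a pannexin of skin were compared between 2 three-dimensional mouse skin models, 1 from cells of an Itih5 knockout mouse and 1 from cells of a wildtype control. The 6 genes were taken by name, Gjb2, Gjb6, Gjb5, Gja1, Gjc1 and Panx1, each through the probe set that the platform annotation gives to that symbol alone, and each had 1 such probe set, among 20828 genes with a restored value. Both models are marked day 7, were built from keratinocytes and fibroblasts of adult mouse skin that had been passaged repeatedly, and received no treatment. ITIH5 is an inter-alpha-trypsin inhibitor heavy chain, and the series concerns its part in stabilising hyaluronan in skin. Each model was measured on 1 array, so no difference has a replicate check, no p-value is given, and the number of arrays limits the precision. The labels state neither whether a model held cells of 1 mouse or of several nor which part of Itih5 the knockout lacks.

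Connexins are membrane proteins that assemble into hexameric pores, and the pores of neighbouring cells dock to form gap junction channels that pass ions and small metabolites such as inositol trisphosphate. The epidermis uses several connexins at once, in patterns that shift with layer, differentiation and wounding. Gjb2, Gjb6 and Gjb5 encode beta connexins of keratinocytes, Gja1 encodes the widespread connexin 43 of keratinocytes and fibroblasts, and Gjc1 encodes a gamma connexin best known from heart and smooth muscle. Pannexins resemble connexins in shape but act mainly as channels of a lone membrane, through which cells release ATP.

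The values are array intensities on a linear scale. Their decimal point was missing from 67457 of the 67586 deposited values and was restored here. A connexin or pannexin gene whose point could lie at more than 1 place is named as such. Values of genes outside this family are given at their likeliest place, and some of them have other possible places that are not named. Intensities of different probe sets are not comparable, so each gene is read against its own value on the other array. Sums over a marker list, given below, follow its brightest probe sets and are a description only. A gene was called expressed where the higher of its values was at or above an intensity of 47.9, the median over probe sets. The 5th percentiles were 21.4 on both arrays, near the lowest intensity of 18 that the restoration allowed. How high the background reaches was not tested. The Itih5 probe set lay under the threshold of 47.9 with 30.4 on the knockout array and 29.8 on the wildtype array, so it checks neither label.

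Gjb2 was far lower in the knockout model and was the only member more than 2-fold apart at the places used. The other beta connexins among the members, Gjb6 and Gjb5, were lower too at every possible place of their points. The size of their difference, however, rests on where the point of the wildtype value lies. Gja1 was slightly lower, whereas Gjc1 and Panx1 were slightly higher, all under 2-fold. Of the 5 members with a decided point, 1 was lower by 2-fold or more, a share to set beside 3.33% of the 12445 expressed genes, and 0 were higher by that much, beside 3.93%. Their median log2 difference, knockout minus wildtype, was -0.58, beside 0.04 over all expressed genes. Gjb6 entered as expressed through its wildtype value alone and therefore had to differ, so this median is a description only.

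**Figure D1:**
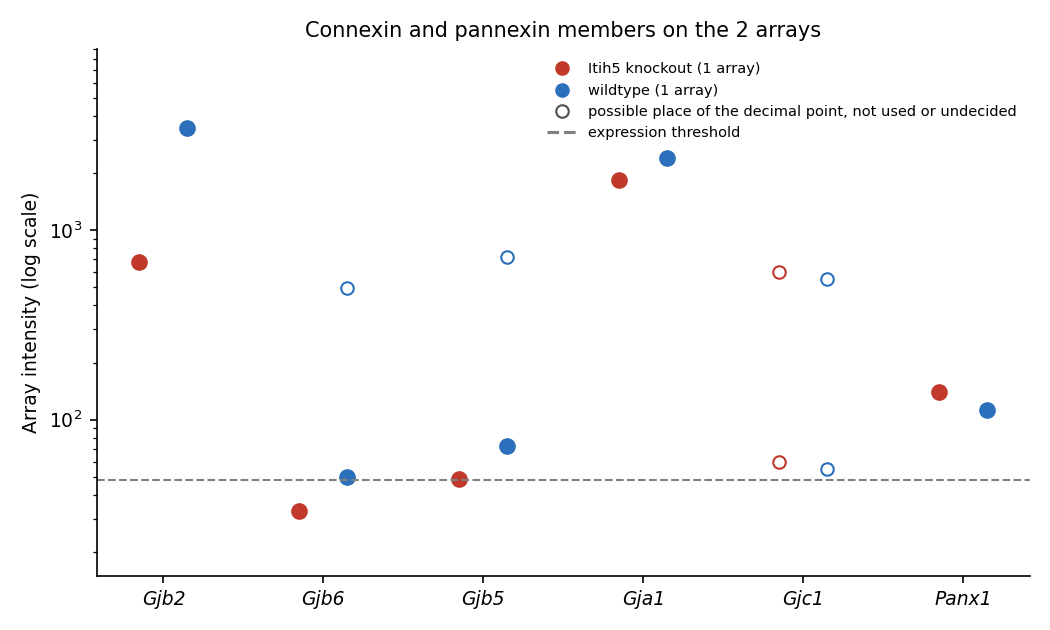
Array intensity on a log axis for each member, with the knockout array in red to the left of the wildtype array in blue, 1 point per array. Filled points are the values used, open points are possible places of the decimal point that were not used or, for Gjc1, remained undecided, and the dashed line is the expression threshold of 47.9. Gjb2 shows the widest gap between filled points, 675 in knockout against 3438 in wildtype.

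Gjb2, the connexin 26 gene, known to rise in wounded and hyperproliferative epidermis, read 675 on the knockout array and 3438 on the wildtype array (probe set 17307117). Both values had 1 possible place of the point and lay far above the threshold. The log2 difference was -2.35, that is 5.09-fold lower in the knockout model. Only 85 of the 12445 expressed genes had a difference further below 0, which puts Gjb2 within the lowest 0.691% of the distribution.

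Gjb6, the connexin 30 gene, found in hair follicles and in epidermis of palms and soles, read 32.9 in the knockout model (probe set 17307125). Its wildtype value could be 49.5 or 495, with a probability of 0.999 for the lower place. At the lower place the log2 difference was -0.59, with the knockout value under the expression threshold and the wildtype value just over it, so that the background bears on it and no fold is read from it. At the higher place the log2 difference would be -3.91.

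Gjb5, the gene of a connexin of differentiating mouse keratinocytes, read 48.3 in the knockout model, barely above the threshold (probe set 17430227). Its wildtype value could be 72.1 or 721, with a probability of 0.997 for the lower place. The log2 difference at the lower place was -0.58 (1.49-fold lower), and 8.59% of expressed genes lay at or below it. The higher place would give a log2 difference of -3.90 (14.9-fold lower).

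These probabilities came from the levels and differences of all probe sets and take no account of what a gene does. Among the 7245 expressed genes with 1 possible place on both arrays, 32 (0.442%) were lower by 8-fold or more in the knockout. Among keratinocyte markers of 3 lists, 1 of 12 with 1 possible place was that far apart, the desmoglein gene Dsg1a, with 78.5 on the knockout array and 802 on the wildtype array. The direction for Gjb5 and Gjb6 is the same at both places, and the small size of their differences is the likelier reading, not a measured fact.

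Gjb2 and Gjb6 are neighbouring connexin genes, with the lncRNA gene Gm32912 between them in the RefSeq table of assembly GRCm38.p6, next to Gja3. Gjb5 lies in another connexin cluster, which also holds Gja4. Gja3 (32.1 in knockout, 32.5 in wildtype) and Gja4 (42.1 in knockout against 43.3 in wildtype) were under the threshold in both models.

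The sequence before the start of 4 members is shown so that the beta connexin genes can be read beside Gja1, which differed less than Gjb2. Each run is the 250 bases upstream of the RefSeq start in GRCm38.p6, 5′ to 3′ on the gene's strand, with motif matches in capitals. The 4 motifs, searched on both strands, were TGANTCA (the AP-1 site), GGGCGG (the GC box), TATAAA (the TATA box letters) and AACCNGTT (letters like the site of grainyhead-like factors). The windows are chr14:57104703-57104952 on the minus strand for Gjb2, chr14:57133612-57133861 on the minus strand for Gjb6, chr4:127358165-127358414 on the minus strand for Gjb5, and chr10:56377050-56377299 on the plus strand for Gja1.
Gjb2: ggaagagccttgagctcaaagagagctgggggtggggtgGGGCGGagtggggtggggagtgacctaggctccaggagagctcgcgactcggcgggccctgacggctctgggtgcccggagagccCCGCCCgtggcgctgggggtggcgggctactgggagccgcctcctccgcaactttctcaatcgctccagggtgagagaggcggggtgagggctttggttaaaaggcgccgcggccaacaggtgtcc
Gjb6: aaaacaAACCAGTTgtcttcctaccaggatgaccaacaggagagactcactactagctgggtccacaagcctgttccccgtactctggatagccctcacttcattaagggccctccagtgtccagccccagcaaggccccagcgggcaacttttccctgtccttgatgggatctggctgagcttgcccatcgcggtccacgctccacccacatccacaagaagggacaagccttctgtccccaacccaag
Gjb5: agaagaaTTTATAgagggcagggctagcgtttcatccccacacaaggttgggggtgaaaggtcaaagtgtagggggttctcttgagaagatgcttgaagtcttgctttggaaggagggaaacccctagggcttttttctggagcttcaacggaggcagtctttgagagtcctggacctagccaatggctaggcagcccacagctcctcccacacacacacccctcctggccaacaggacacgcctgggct
Gja1: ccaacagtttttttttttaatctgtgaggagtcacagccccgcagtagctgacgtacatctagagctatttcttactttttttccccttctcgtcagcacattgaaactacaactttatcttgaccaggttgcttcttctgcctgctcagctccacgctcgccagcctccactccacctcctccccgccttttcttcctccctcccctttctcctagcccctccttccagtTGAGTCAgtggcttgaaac

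The Gjb2 window was rich in G and C, at 69.2% against a median of 52.4% over all 32851 windows of this length, and held 2 GC boxes, a motif present in 32.7% of all windows. The Gjb6 window held 1 match of AACCNGTT, found in 1.79% of windows, between 244 and 237 bases before the start. The Gjb5 window held the letters TATAAA on the opposite strand between 243 and 238 bases before the start, and 12.4% of windows hold them somewhere. Gja1 had an AP-1 match 19 to 13 bases before its start, a motif found in 6.75% of windows. None of the 4 motifs was shared between these 4 windows, and the Panx1 window held none. RefSeq windows were matched for 5 of the 6 members. No matches overlapped, and a match describes letters and shows no binding.

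Gja1, the connexin 43 gene, read 1843 on the knockout array and 2409 on the wildtype array (probe set 17233347). Both values had 1 possible place. The log2 difference was -0.39 (1.31-fold lower), and 14.4% of expressed genes lay at or below it. Its transcript was thus well above the threshold in both models, and its values lay much closer together than those of Gjb2.

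Gjc1, the connexin 45 gene, remained undecided in level (probe set 17270315). Its values could be 59.8 on the knockout array and 55.2 on the wildtype array, with a probability of 0.556, or 598 on the knockout array and 552 on the wildtype array, with 0.442. Both pairs give the same log2 difference of 0.12 (1.08-fold higher in the knockout model), and the probability of that difference was 0.997. It was expressed at either level, but which level holds is unknown.

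Panx1, which encodes the widely expressed ATP-releasing pannexin, read 140 on the knockout array and 112 on the wildtype array (probe set 17524107). Both values had 1 possible place, and the log2 difference was 0.32 (1.25-fold higher). It lay inside the bulk of the distribution, with 75.3% of expressed genes at or below it.

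**Figure D2:**
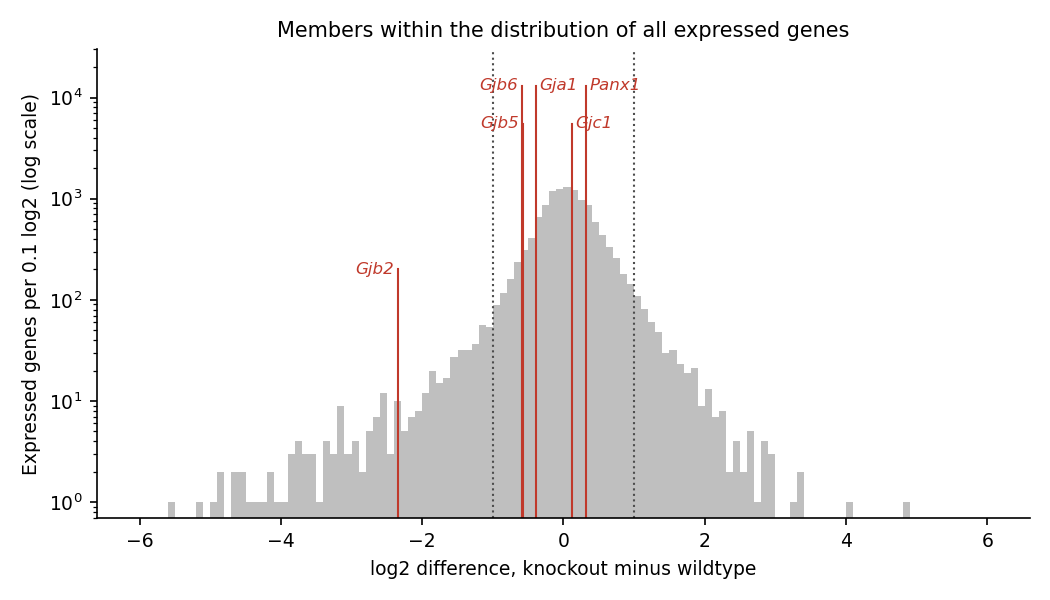
Histogram of the log2 difference (knockout minus wildtype) of the 12445 expressed genes in steps of 0.1, with the count on a log axis. Red lines mark the 6 members at their likeliest place, the heights of the lines carry no value, and dotted lines mark 2-fold. Gjb2 at -2.35 is the member in the lower tail, and the other 5 lie within 2-fold.

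Of 15 other connexin and pannexin genes looked up, 13 had a probe set of their own and none of these was 2-fold apart at its likelier place. In 9 of them both values were under the expression threshold, among them Gjb1, the liver-type connexin, with 38.4 on the knockout array and 40.3 on the wildtype array. Gja5, a connexin of arterial endothelium and heart conduction tissue, read 56.9 on the knockout array and 38.1 on the wildtype array. Gjc3, a glial connexin, read 34.4 in knockout against 56.2 in wildtype at its likelier place. The values of Gja5 and of Gjc3 lie on both sides of the threshold, so no fold is given. Gjd3 (70.9 in knockout against 72.7 in wildtype) and Panx2, the pannexin best known from brain (86.7 in knockout, 78.1 in wildtype at its likelier place), were expressed in both models at close values. Panx3, a pannexin of cartilage and skin, was under the threshold with 36.5 on the knockout array and 41.5 on the wildtype array. Gja6, Gja10, Gjd2, Gjd4 and Gje1 were also under it, between 21.2 and 38.1 on the knockout array and between 22.3 and 36.3 on the wildtype array.

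**Figure D3:**
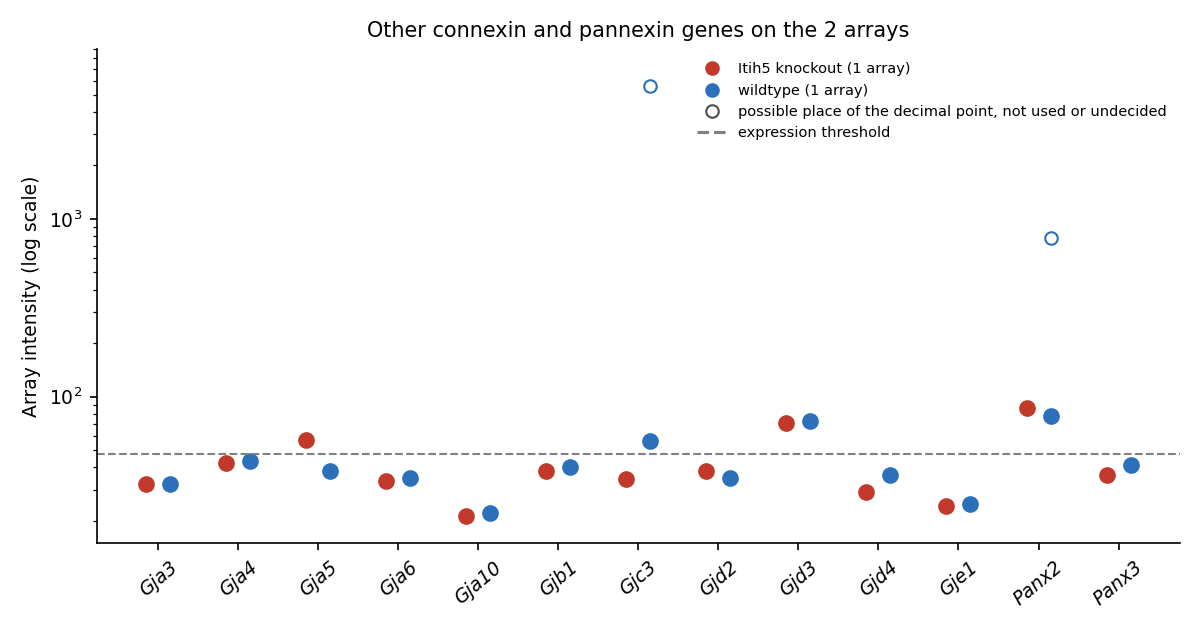
Array intensity on a log axis for the 13 other connexin and pannexin genes with a probe set of their own, knockout in red to the left of wildtype in blue, 1 point per array. Open points are possible places of the decimal point that were not used. Most pairs of filled points lie under the dashed threshold of 47.9, and no pair of filled points is 2-fold apart.

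Most expressed keratinocyte markers were lower in the knockout model, as were Gjb2, Gjb5 and Gjb6. With 1 array per group, whether these genes vary together was not tested. Of 21 expressed keratinocyte marker genes in 3 lists, 20 were lower in the knockout model and 3 lay further below 0 than Gjb2. The basal marker Dst was the 1 that was higher, with 469 in knockout against 322 in wildtype. The median log2 difference of these markers was -1.23, beside 0.04 over all expressed genes. Of all expressed genes, 3.33% were lower by 2-fold or more and 3.93% were higher by that much, shares to set beside the counts below. All 9 expressed suprabasal markers were lower and 7 passed 2-fold, the median being -1.35, with a summed intensity of 7601 on the knockout array and 23682 on the wildtype array. Krt1 (39.8 in knockout, 54.7 in wildtype) counts in these totals but was expressed through its wildtype value alone and so had to be lower. Krt10, the keratin of suprabasal cells, read 333 on the knockout array and 850 on the wildtype array. All 7 expressed wound keratinocyte genes were lower as well and 5 passed 2-fold, with a median of -1.49 and sums of 14953 (knockout) and 37616 (wildtype). Krt6a, a keratin gene of wounded epidermis, read 4184 in knockout against 7469 in wildtype, under 2-fold, and the point of Krt16 was undecided. The interleukin-36 gene Il1f6 read 1001 on the knockout array and 6000 on the wildtype array. Of 5 basal markers 2 were at least 2-fold lower, Krt14 (4076 in knockout against 9538 in wildtype) and Krt15 (63.2 in knockout against 127 in wildtype), with a median of -0.89 and sums of 6050 (knockout) and 12623 (wildtype). Krt14 makes up most of the basal sums. These lists leave out undecided markers, 2 basal, 1 suprabasal and 4 of the wound list, and no marker intensity was 0. At their likeliest place the undecided Itgb4, Lgals7 and Il1f8 read higher in knockout, and the other undecided markers read lower.

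Expressed fibroblast markers, by contrast, were higher. All 9 expressed members of that list were above 0 and 2 passed 2-fold, their median log2 difference being 0.88. Lum (24.6 in knockout, 30.9 in wildtype) and Fap (29.0 in knockout, 36.0 in wildtype) were under the threshold and read lower in knockout. Over all 11 decided markers the intensities summed to 14165 on the knockout array and 7699 on the wildtype array. Col1a1, a chain of type I collagen, read 2145 on the knockout array and 876 on the wildtype array, and Vim, the vimentin gene, 6479 in knockout against 3665 in wildtype. Col1a2 read 810 in knockout against 437 in wildtype and Twist2, a transcription factor gene of dermal fibroblasts, 495 in knockout against 160 in wildtype. The labels give keratinocytes and fibroblasts together, so fewer keratinocytes in a model and less Gjb2 RNA per keratinocyte cannot be told apart. The part of cell makeup in the values of Gjb2, Gjb5, Gjb6 and Gja1 was not tested.

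Markers of vessels were low, with the endothelial genes Pecam1 (41.0 in knockout, 38.3 in wildtype) and Cdh5 (38.7 in knockout against 45.0 in wildtype) under the threshold in both models. Of 7 endothelial genes, 4 were under it. Kdr, a VEGF receptor gene, was over 2-fold apart with 87.4 in knockout and, under the threshold, 36.1 in wildtype. The sums over the list were 326 (knockout) and 282 (wildtype), and the higher knockout sum rests on Kdr. Smooth muscle and pericyte genes had 4 of 6 expressed, all under 2-fold, with sums of 398 (knockout) and 532 (wildtype). The lower knockout sum rests on Notch3 (148 in knockout, 284 in wildtype). Both sums leave out Acta2, with an undecided point, which at its likeliest place read 287 in knockout against 151 in wildtype. In the melanocyte list 2 of 4 expressed genes passed 2-fold upward, Mlana (705 in knockout against 109 in wildtype) and Mitf (464 in knockout against 215 in wildtype), with sums of 1379 (knockout) and 546 (wildtype). Those sums are mostly Mlana and Mitf. Sox10 read 51.3 in knockout against 66.4 in wildtype, and the pigment enzyme genes Dct, Tyrp1 and Tyr were under the threshold in both models, each slightly lower in knockout. Macrophage and Langerhans cell genes had 3 of 6 expressed, 0 of them 2-fold apart, with sums of 1175 (knockout) and 1528 (wildtype). Cd68 makes up most of these sums (861 in knockout, 1161 in wildtype). Adgre1, Csf1r and Cd207 were under the threshold in both models. C1qa was expressed through its knockout value alone, and the point of Ptprc was undecided.

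Genes whose products bind connexins or govern their traffic and turnover differed in both directions. Of 21 expressed members with a decided point, 1 passed 2-fold downward and 1 upward, and the median log2 difference of 0.09 lay near that of all expressed genes. Ocln, the occludin gene of tight junctions, read 97.1 on the knockout array and 292 on the wildtype array (3.01-fold lower). Dbn1, which encodes drebrin, an actin-binding partner of connexin 43, read 188 on the knockout array and 86.3 on the wildtype array (2.18-fold higher). The other 19 were under 2-fold, and the points of Ccn3 and Tsg101 were undecided.

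Genes listed as other large-pore channels, and genes that sense or break down released ATP, had medians above the 0.04 of all expressed genes. Of 7 expressed genes of the Lrrc8, Calhm and Ttyh families in the first list, 1 passed 2-fold upward, beside 3.93% of all expressed genes. It was Ttyh2, with 387 on the knockout array and 126 on the wildtype array. Whether the listed proteins form such pores was not tested. The median log2 difference was 0.20 without the expression filter and 0.38 with it. The median of 0.38 is the value of Calhm5 (60.5 in knockout, 46.5 in wildtype), expressed through its knockout value alone. Of 10 expressed ATP receptor and ectonucleotidase genes, 1 passed 2-fold upward and 0 downward. Their median was 0.56, and 0.07 without the expression filter. That gene was Entpd1, whose product breaks down extracellular ATP, with 254 on the knockout array and 87.9 on the wildtype array (2.88-fold higher). Calcium signalling genes had 0 of 11 expressed members 2-fold apart and a median of -0.28, which was -0.61 with a filter at 100 intensity units. These counts leave out Lrrc8c, Lrrc8e, P2rx4, P2ry1, Plcg1 and Atp2a2, whose points were undecided.

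**Figure D4:**
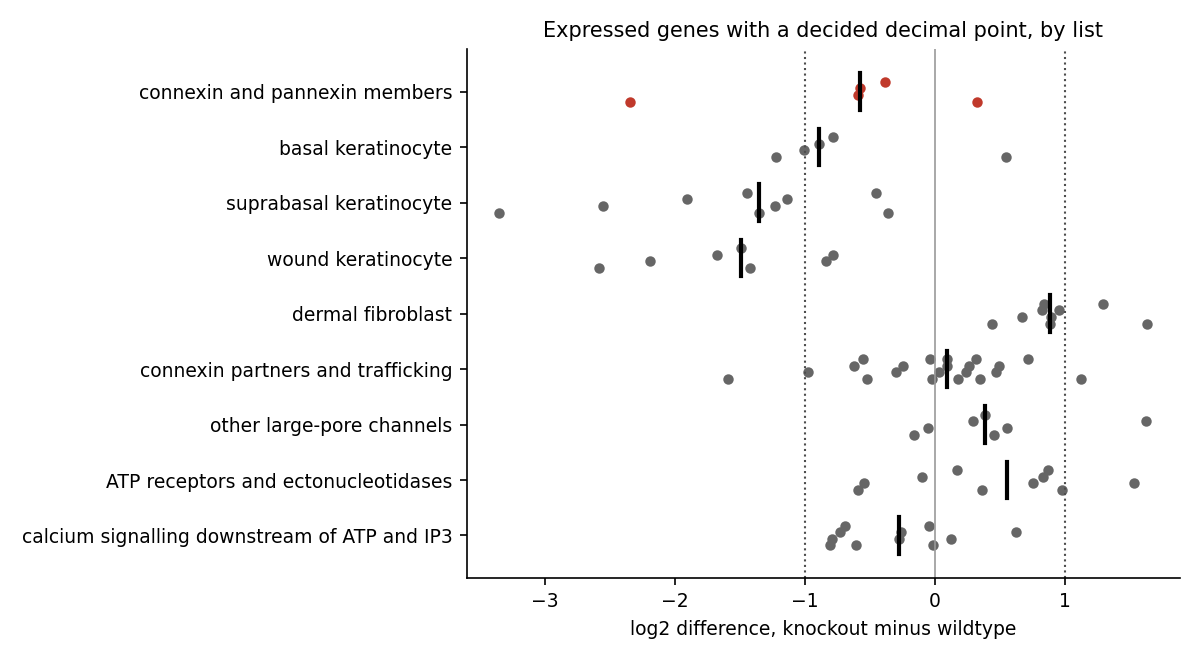
log2 difference (knockout minus wildtype) of each expressed gene with a decided decimal point, 1 point per gene, by list, with the members in red on top. Black bars are the medians and dotted lines mark 2-fold. The 3 keratinocyte lists lie left of 0 but for 1 gene, the expressed fibroblast genes lie right of 0, and the members spread between -2.35 and 0.32.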

How the data were processed

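Per the labels' protocols, total RNA was amplified with an Ambion kit (WT Expression) and labelled with biotin for Affymetrix arrays. The deposited values are probe set intensities. No source used here gives their summary, normalization or scanner software.

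The decimal point was restored first. A place was possible if it gave the shortest decimal form of a 2-power with a single-precision exponent, at least 3 decimals, and an intensity from 18 to 20000. All 129 values that kept a point had at most 2 decimals, and 0 of 52368 lost-point values with 1 place had fewer than 3. Both arrays had 1 possible place for 21121 of 33793 probe sets. The others were given probabilities from the joint distribution of level and difference over the whole table (expectation maximisation, 25 rounds), blind to the sign of the difference, and each place was weighted by the spacing of single-precision log2 values. The 31892 probe sets whose likeliest pair of places reached 0.95 were used, with an expected 48.6 in error. The procedure was also run on simulated data, and the outcome is not reported here, so no support is drawn from it.

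A gene with several decided probe sets was given the brightest. Column medians of 46.3 (knockout) and 46.7 (wildtype) led to no further normalization. The members, lists and settings were chosen with earlier results of these data known. Genes outside the family were chosen for naming where at least 2-fold apart and expressed on both arrays, at most 4 per list, beside fixed cell type markers. Not all of these are printed. Others were named as exceptions in their list, as carriers of a sum or median, as near or under the threshold, or as undecided. Some genes are not reported here. The lncRNA gene Gm32912 is named for its position only. Calculations used Python 3.11.15, numpy 2.4.6 and pandas 2.3.3.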

Additional observations from a re-analysis of the deposited data

How the results depend on the processing

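The member differences were recomputed under up to 9 other settings, and all stayed within 0.2 log2 of the values above, Gjb2 between -2.35 and -2.32. With 1 possible place only, Gjb5, Gjb6 and Gjc1 gave no value. Weighting places without the spacing of log2 values, a setting chosen after seeing the data, raised the probability of the lower Gjc1 pair to 0.839, still undecided. The counts over all genes moved by construction with the fold threshold, to 1461 higher and 1044 lower at 1.5-fold and 128 higher and 181 lower at 3-fold, against 489 higher and 414 lower at 2-fold. With 1 possible place only, 312 genes were higher, since fewer were tested. Of 178 list medians under alternatives, 14 moved by at least 0.2 log2, among them that of calcium signalling genes, to -0.61 with a filter at 100 intensity units. Those of endothelial genes (-0.07) and melanocyte genes (-0.07) fell below 0 without a filter on low values, where the cause was not tested. No paired analysis was possible because there was 1 array per group, which also left no array to leave out. Values near the background have compressed differences, which bears on Gjb5 and Gjb6.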
